A study of Mus musculus with 4 samples.

Results

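The genes described here are the autosomal olfactory receptor genes of the mouse, those with a symbol of the form Olfr plus a number, outside the X chromosome and with an H3K27me3 value in both genotypes. They numbered 245 of the 20606 genes with both values, and were chosen by name and by having values, not by how they behaved. Trimethylation of histone H3 at lysine 27 (H3K27me3) was measured by chromatin immunoprecipitation and sequencing (ChIP-seq) in embryonic fibroblasts from female fetuses of strain C57BL6/J at embryonic day 13.5. The Smchd1 +/+ cells (WT) and the Smchd1 MD1/MD1 cells (MD1) each gave 1 ChIP library, made with antibody CMA323, and 1 input library without antibody. MD1 is a loss-of-function allele of Smchd1 from a mutagenesis screen, and it is carried in all cells rather than deleted in 1 cell type. How many fetuses each library represents is not given in the sources used here. With 1 value per gene and genotype there is no replicate error, so the genotypes are described side by side without a test or p-value.

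Olfactory receptors are odorant-binding G protein-coupled receptors and form the largest gene family of the mouse. Each olfactory sensory neuron expresses 1 allele of 1 receptor gene, while the other receptor genes are packed in heterochromatin that is known chiefly for H3K9me3 and H4K20me3 rather than for H3K27me3. The genes lie in tandem clusters on many chromosomes, and nearly all are silent in fibroblasts. SmcHD1 is a noncanonical SMC-family protein that binds the inactive X chromosome and some autosomal gene clusters. The series concerns its part in maintaining X inactivation, and the comparison made here asks what the mark looked like at a large autosomal family of silent, clustered genes with and without it.

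Most receptor genes had no value. The table listed 1117 Olfr genes. The X chromosome held 6, without values. Of the 1111 autosomal ones, 857 were shorter than 1000 bp (median 942 bp), and no gene of any kind below that length had a value. Of the 254 longer ones, 245 had both values, 4 had one in WT alone, 2 in MD1 alone and 3 in neither. The 245 are therefore 22.1% of the autosomal receptor genes, all of them with an annotated length above 1000 bp. Their lengths ran from 1002 to 84655 bp with a median of 1130 bp. Near-identical receptors can share reads, and how reads mapping to several places were counted is not given in the sources used here. The intervals of Olfr56, Olfr78, Olfr27, Olfr102 and Olfr742 also overlap another listed gene.

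Both genotypes placed the receptors in the middle of the H3K27me3 range and almost never at its bottom. A value is a log2 enrichment, so a difference of 1 is 2-fold. What the ChIP signal was divided by is not stated, and the values have the form of a ratio of whole numbers. Levels of different genes are set side by side here on the assumption that both terms were taken over the same interval, so that gene length cancels. The median receptor stood at -0.21 in WT (quartiles -0.78 and 0.52) and at -0.42 in MD1 (quartiles -0.99 and 0.27). Over all 19836 autosomal genes the medians were -0.78 and -0.90, with quartiles of -2.13 and 0.49 in WT and of -2.96 and 0.49 in MD1. The receptor medians stood at percentiles 60.2 and 58.0 of autosomal genes. Only 6 receptors in WT (2.45%) and 1 in MD1 (0.408%) lay below the lower autosomal quartile. Above the upper one lay 65 of 245 in WT (26.5%) and 49 of 245 in MD1. By the definition of a quartile, this was near the share of all autosomal genes in WT and below it in MD1. Of the 102 receptors of 2000 bp or more, 12 in WT (11.8%) and 13 in MD1 (12.7%) lay above the upper quartile.

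**Figure D1:**
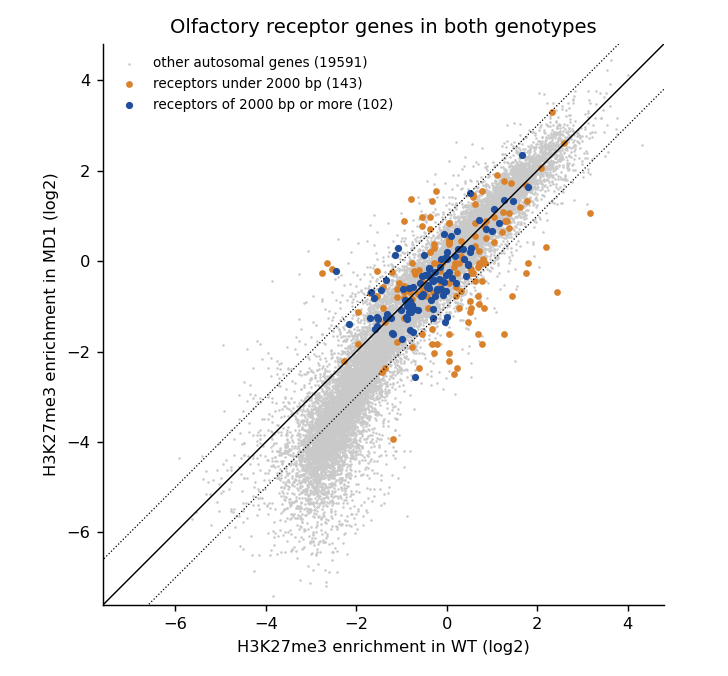
H3K27me3 enrichment (log2) in WT on the x axis and MD1 on the y axis, 1 point per autosomal gene, with no replicates. Orange points are the 143 receptors under 2000 bp, blue points the 102 of 2000 bp or more and grey points the 19591 other autosomal genes. The solid line marks equal values and the dotted lines a 2-fold difference. The receptors sit in the middle of the range, nearly clear of the low tail of the grey cloud, and the blue points keep closer to the line than the orange ones.

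For comparison, most of a list of fibroblast marker genes had far less of the mark. The median of 12 fibroblast marker genes was -2.87 in WT and -3.98 in MD1, and Col1a1, a collagen gene chosen as an example, stood at -2.73 and -3.99. Fap (-0.85 and -0.98) and Thy1 (-1.80 and -1.21) were the highest of the 12, though below the receptor medians. Most markers of the olfactory sensory neuron stood higher than the receptor medians. Of 8 such markers 7 had values, and their median was 0.99 in WT and 1.23 in MD1. Adcy3, the adenylyl cyclase of olfactory signalling (-0.87 and -1.41), and Gap43, a growth-cone protein gene of immature neurons (-0.66 and -0.67), lay below the receptor medians, and the other 5 above. Omp, encoding the olfactory marker protein, stood at 2.54 in WT and 1.58 in MD1. Smchd1 itself stood at -2.44 in WT and -3.47 in MD1, which measures the mark on the gene and does not check its genotype. Markers were read for the mark alone, since expression was not measured.

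Where promoters are concerned, the receptors shared a sequence feature that the selection did not use, a near absence of CpG. CpG-rich promoters are the usual sites at which Polycomb complexes deposit H3K27me3 in mammals. RefSeq promoters (250 bases before to 50 after the annotated start, build GRCm38.p6) were found for 209 of the 245 genes. These 212 promoters held a median of 1 CpG in 300 bases (quartiles 0 and 2), against 7 (quartiles 3 and 20) in all 32841 promoters of the table, and 131 of them (61.8%) held 0 or 1, against 14.1% of all. Their median GC content was 37.3%, against 52.7%. These windows rest on the annotated starts, and whether transcription begins there was not tested. The 245 genes have a median annotated length of only 1130 bp, so upstream exons may be missing from the annotation. Some windows may therefore not be promoters, which applies to all CpG, GC and motif counts here.

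Promoters of receptors with much of the mark, and of others near the autosomal medians, are shown as examples. They were picked after their values were seen, and each CpG is in capitals. They hold 3, 4 and 13 CpG in the first group and 0, 0 and 2 in the other, so Olfr1414 and Olfr943 differ by little. The first group holds genes of small clusters with a positive enrichment in both genotypes: Olfr1414 at chr1:92518466-92518765 (minus strand), Olfr70 at chr4:43700758-43701057 (minus strand) and Olfr212 at chr6:116506266-116506565 (plus strand), all in GRCm38.p6.
Olfr1414: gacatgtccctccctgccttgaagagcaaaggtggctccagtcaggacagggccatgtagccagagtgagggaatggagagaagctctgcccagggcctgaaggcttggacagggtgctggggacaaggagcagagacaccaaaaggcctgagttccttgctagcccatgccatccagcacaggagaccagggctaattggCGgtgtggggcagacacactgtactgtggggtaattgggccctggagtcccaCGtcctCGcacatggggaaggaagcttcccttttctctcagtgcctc
Olfr70: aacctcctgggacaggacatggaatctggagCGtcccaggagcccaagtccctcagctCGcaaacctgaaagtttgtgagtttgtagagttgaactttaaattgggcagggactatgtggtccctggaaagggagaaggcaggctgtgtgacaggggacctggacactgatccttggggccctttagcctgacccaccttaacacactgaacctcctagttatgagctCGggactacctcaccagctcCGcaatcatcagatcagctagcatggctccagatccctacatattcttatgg
Olfr212: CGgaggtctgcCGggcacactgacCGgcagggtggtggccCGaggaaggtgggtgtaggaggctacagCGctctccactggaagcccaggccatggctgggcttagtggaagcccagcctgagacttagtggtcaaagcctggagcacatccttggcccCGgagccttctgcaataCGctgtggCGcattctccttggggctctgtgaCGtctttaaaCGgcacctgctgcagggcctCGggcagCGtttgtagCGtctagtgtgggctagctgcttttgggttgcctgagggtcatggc

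The other group holds the longest receptors of large clusters, all with a negative enrichment in both genotypes: Olfr110 at chr17:37492218-37492517, Olfr872 at chr9:20236912-20237211 and Olfr943 at chr9:39166060-39166359, all on the plus strand of GRCm38.p6.
Olfr110: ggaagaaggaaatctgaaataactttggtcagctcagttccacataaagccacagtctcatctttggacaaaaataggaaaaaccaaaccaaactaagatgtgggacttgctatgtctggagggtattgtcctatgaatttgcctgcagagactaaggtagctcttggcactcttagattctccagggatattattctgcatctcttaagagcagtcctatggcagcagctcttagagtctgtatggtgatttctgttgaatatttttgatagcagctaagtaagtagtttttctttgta
Olfr872: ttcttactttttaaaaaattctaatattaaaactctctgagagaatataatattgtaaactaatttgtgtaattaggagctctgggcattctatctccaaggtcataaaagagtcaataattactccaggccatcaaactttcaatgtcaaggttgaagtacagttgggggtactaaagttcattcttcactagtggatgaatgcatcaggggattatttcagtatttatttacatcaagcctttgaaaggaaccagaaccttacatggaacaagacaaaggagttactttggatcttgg
Olfr943: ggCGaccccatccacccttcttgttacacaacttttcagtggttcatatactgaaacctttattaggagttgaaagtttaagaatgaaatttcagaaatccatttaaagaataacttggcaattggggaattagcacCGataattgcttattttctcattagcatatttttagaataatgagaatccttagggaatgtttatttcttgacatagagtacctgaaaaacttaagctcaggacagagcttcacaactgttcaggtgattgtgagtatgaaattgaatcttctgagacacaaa

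Short motifs known from receptor promoters were counted in the same windows on both strands, with the same limit on the annotated starts. Lhx2 is a homeodomain factor needed for receptor expression, and homeodomain factors bind short AT-rich cores. The core TAATTA was found in 38 of the 212 promoters (17.9%) against 5.29% of all promoters, and another core, TAATGA, in 73 (34.4%) against 9.78%. The TATA-box letters TATAAA were found in 71 (33.5%) against 13.6%. A core of the site bound by Ebf factors, which act with Lhx2 at receptor genes, CCCNNGGG, was found in 18 (8.49%) against 13.7%. The 2 homeodomain cores share their first letters and can overlap, and CCCNNGGG and TAATTA read the same on both strands. The receptor promoters are also poor in G and C, and the part of base composition in these shares was not tested.

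Receptors with more promoter CpG carried more of the mark in both genotypes. The 206 genes with a single promoter were split by its CpG count. The 129 with 0 or 1 CpG had medians of -0.37 in WT and -0.56 in MD1, the 60 with 2 or 3 had -0.12 and -0.15, and the 17 with 4 or more had 0.88 and 0.78. Across these genes the CpG count correlated with the level at a Spearman rho of 0.24 in WT and 0.24 in MD1, and with the difference between genotypes at -0.0090. GC content correlated at 0.33 and 0.40 with the levels. Single genes departed from this. Olfr12 with 1 CpG (2.33 in WT and 3.29 in MD1) and Olfr1413 with 2 (2.59 and 2.60) were high, while Olfr187 with 6 (-0.78 and -1.03) and Olfr324 with 5 (-0.61 and -2.35) were low. Genes share libraries and clusters, so these values are descriptions.

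**Figure D2:**
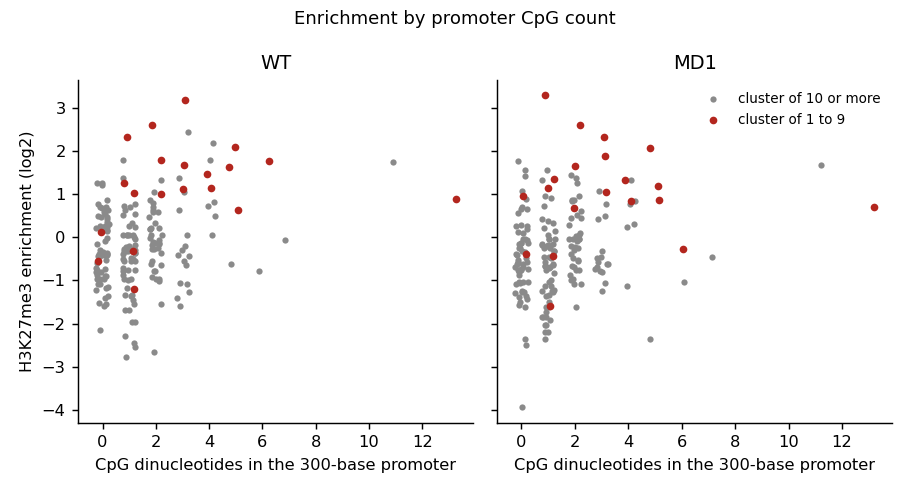
H3K27me3 enrichment (log2) in WT and in MD1 against the number of CpG dinucleotides in the 300-base RefSeq promoter, 1 point per receptor gene with a single promoter (206 genes, points shifted sideways for visibility). Red points are genes in clusters of 1 to 9 receptor genes and grey points those in larger clusters. Genes with 4 or more CpG sit mostly above 0 in both panels, with medians of 0.88 and 0.78.

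Receptors in small clusters had higher H3K27me3 medians than those in large ones. Receptor genes were joined into a cluster where neighbours lay at most 1 Mb apart, which gave 47 clusters, 32 of them with at least 1 measured gene. The 25 measured genes in clusters of 1 to 9 receptor genes had a median of 1.11 in WT and 1.06 in MD1, percentiles 86.7 and 84.5 of autosomal genes. The 220 in clusters of 10 or more had -0.28 and -0.49. Among receptors of 2000 bp or more the contrast was 0.94 and 0.78 (14 genes) against -0.49 and -0.62 (88 genes). Leaving out each of the 12 small clusters in turn kept the median between 0.99 and 1.42 in WT and between 0.85 and 1.19 in MD1. Not every small cluster was high, and the 2 solitary receptors with values, Olfr49 (0.63 in WT and 0.85 in MD1) and Olfr370 (1.76 and -0.27), were not high throughout. This grouping by size was chosen after the values were seen.

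The small clusters also stood above their surroundings. In 11 of the 12 the receptor median exceeded that of the other genes within 500 kb on either side, in WT and in MD1, and the flanking medians ran from -2.08 to -0.26 in WT. The exception was Olfr5 on chromosome 7, at -1.20 and -1.59. Most of the 12 small clusters had only 1 gene with values, so their median is the value of that gene. Of the 20 larger clusters with values, 14 exceeded their flanks in WT and 9 in MD1. Promoter CpG moved with cluster size, since 7 of 20 genes in small clusters had 4 or more CpG against 10 of 186 in larger ones. Within the larger clusters the median WT level was still -0.37 with 0 or 1 CpG, -0.16 with 2 or 3 and 0.61 with 4 or more. How much of the level goes with each was not tested.

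**Figure D3:**
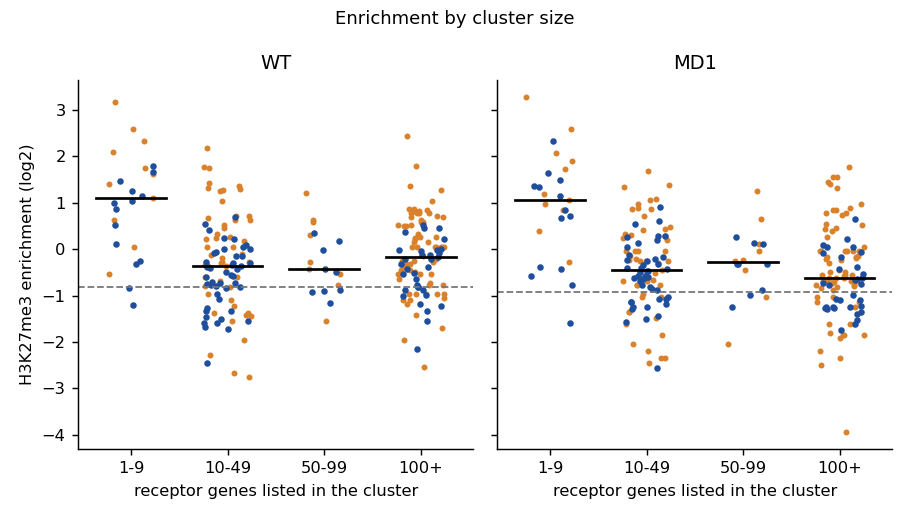
H3K27me3 enrichment (log2) of each receptor gene in WT and in MD1 by the number of receptor genes listed in its cluster. Orange points are genes under 2000 bp, blue points longer ones, black bars medians and the dashed line the median of the other autosomal genes. Clusters of 1 to 9 genes have medians of 1.11 and 1.06 and the larger ones lie lower, but above the dashed line in both genotypes.

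Several small clusters illustrate this. On chromosome 1, Olfr1414 (mm9, 94407625 to 94415092), one of the genes whose promoter is printed above, stood at 1.67 in WT and 2.34 in MD1. Its neighbour Olfr1413 stood at 2.59 and 2.60, and Olfr12 at 2.33 and 3.29. These 3 genes were thus high in both genotypes, and Olfr12 had the highest MD1 value of any receptor. On chromosome 15 the adjacent Olfr288 (1.04 and 1.15), Olfr287 (0.99 and 0.67) and Olfr286 (1.14 and 0.84) differed by 0.32 or less on the log2 scale.

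The OR37 receptors of chromosome 4, which are conserved among mammals and whose neurons project to a restricted part of the olfactory bulb, were also high. Olfr156 stood at 2.09 in WT and 2.07 in MD1, Olfr157 at 1.42 and 1.73, and Olfr155 at 3.17 and 1.06. Olfr155 had the highest WT value of any receptor, and it alone of these differed more than 2-fold. It spans 1172 bp, and its ratios in lowest terms were 35 to 4 in WT and 17 to 8 in MD1. Olfr70, in the same cluster, stood at 1.46 and 1.34.

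Between genotypes the receptors differed little in the median, and 102 of 245 had a positive difference, against 31% of all autosomal genes. From 1000 bp to under 2000 bp the shares were alike, with 60 of 143 receptors and 344 of 811 other autosomal genes positive. The difference D is the MD1 value minus the WT value. Its median over receptors was -0.13 (quartiles -0.57 and 0.26), against -0.27 over all autosomal genes, whose values are shifted downward in MD1 as a whole. Relative to the other autosomal genes the receptor median was therefore 0.15, with the opposite sign. Relative to genes of like level and length it was -0.10, so the sign depends on the genes compared. D was at or below -1, 2-fold lower in MD1, at 36 receptors (14.7%) against 20.4% of autosomal genes. It was at or above 1 at 15 receptors (6.12%) against 1.61%. Centred on the other autosomal genes these counts became 29 lower and 34 higher. Relative to genes of like level and length, 33 were lower (13.5%, against 3.41% of autosomal genes) and 20 higher (8.16%, against 3.16%). That matching is by length quartile only. On the same measure 13.6% of other genes from 1000 bp to under 2000 bp were lower and 17.6% higher, beside 21.0% and 10.5% of receptors of that length.

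Length divided the receptors into a scattered and a steady group. Of the 51 receptors past the 2-fold limit, 45 were shorter than 2000 bp. In the band from 1000 bp to under 2000 bp, 33 of 143 were lower (23.1%) and 12 higher (8.39%), near the 22.9% and 10.4% of the 811 other autosomal genes of that length. The standard deviation (SD) of D over genes was 1.13 in these receptors and 1.10 in the others. Their ratios in lowest terms had a median denominator of 7 in either genotype, against 137 in WT and 129 in MD1 for all autosomal genes. Small terms can come from few reads or from larger counts that reduce. Across genes, WT and MD1 levels correlated at a Pearson r of 0.48 in these 143 receptors and 0.76 in the 102 longer ones. In other autosomal genes of these lengths r was higher, 0.88 and 0.95, and levels spread more widely. The SD of the WT level was 1.07 in the short receptors and 0.79 in the longer ones, against 2.01 and 1.55. The part of that spread in r was not tested.

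Among the 102 receptors of 2000 bp or more, 96 (94.1%) stayed within the 2-fold limit. Here 3 were lower (2.94%) and 3 higher (2.94%), against 20.4% and 1.18% of the 18780 other autosomal genes of such length. By band, 1 of 57 receptors from 2000 bp to under 5000 bp was lower and 3 were higher, against 23.2% and 5.71% of other genes. From 5000 bp to under 10000 bp 1 of 32 was lower and none higher, against 20.3% and 1.43%, and at 10000 bp or more 1 of 13 and none, against 19.8% and 0.265%. The SD of D was 0.56 in the 102, against 0.76 in the other genes. Level bears on this comparison. Of the other genes of 2000 bp or more, 7808 had a mean level of both genotypes within the range from the 5th to the 95th percentile of these receptors. Among them 1.73% were lower and 1.60% higher, with an SD of 0.43 and a median length of 23660 bp, and among the 90 receptors in that range 2.22% and 3.33%, with an SD of 0.54 and a median length of 4578 bp. Other autosomal genes of like level thus had a similarly low share of genes past the limit. The difference was positive in 34 of these 90 receptors and in 3257 of the 7808 other genes.

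**Figure D4:**
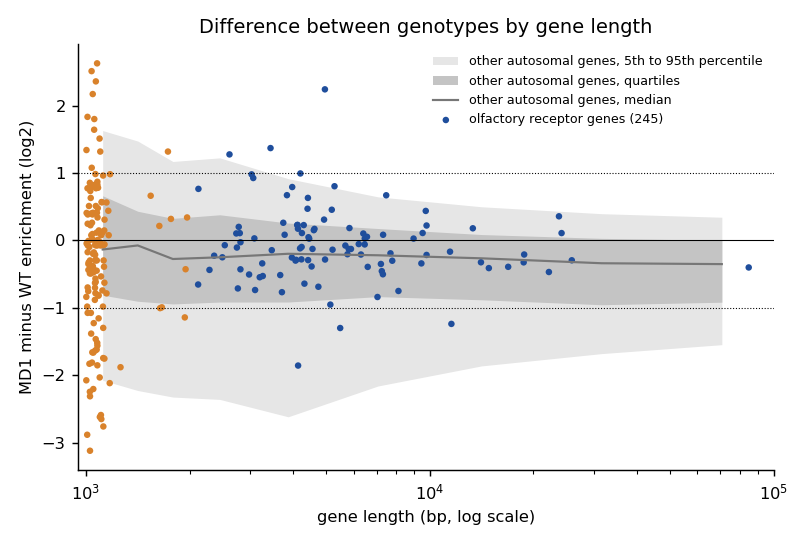
MD1 minus WT enrichment (log2) of the 245 receptor genes against gene length on a log axis, with no replicates. Orange points are genes under 2000 bp and blue points longer ones. The grey bands are the quartiles and the 5th to 95th percentiles of other autosomal genes binned by length, and dotted lines mark 2-fold differences. Most points past the dotted lines are short genes, 45 of 51.

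The longest receptor of each well-covered cluster had nearly equal values in WT and MD1. Olfr1033 (chromosome 2, 85860797 to 85884965) stood at -0.02 in WT and 0.09 in MD1, with ratios in lowest terms of 196 to 205 and 38 to 35. Olfr943 (chromosome 9, 38973895 to 38992709) stood at -0.77 and -0.98, and Olfr872, also on chromosome 9, at -0.97 and -0.61. Olfr741 on chromosome 14 stood at -0.75 and -0.57. Olfr701 on chromosome 7 stood at -0.92 and -0.87, Olfr110 on chromosome 17 at -0.72 and -1.07. On chromosome 11 Olfr59 stood at 0.01 and 0.20, and Olfr330 at -0.29 and -0.42. These 9 longest genes of the clusters with 10 or more values, Olfr78 below included, differed by 0.36 at most in either direction.

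The 6 longer receptors past the limit lay in 5 clusters. Olfr121 on chromosome 17 was -0.71 in WT and -2.57 in MD1, while Olfr119 of the same cluster differed the other way, with -2.45 in WT and -0.21 in MD1. Olfr947-ps1 on chromosome 9, annotated as a pseudogene and 11556 bp long, was 0.00 in WT and -1.24 in MD1, with ratios of 101 to 104 and 49 to 113. Olfr1030 on chromosome 2 was -0.04 in WT and -1.34 in MD1. Olfr378 on chromosome 11 was -1.08 in WT and 0.29 in MD1 and Olfr695 on chromosome 7 from -1.15 to 0.13. These 6 were picked for their size of difference.

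Among the receptors whose average of WT and MD1 reached the receptor median, the 8 lowest differences ran from -3.12 to -1.83 and the 8 highest from 1.08 to 2.17. All 16 genes were shorter than 2000 bp. The lowest was Olfr968 on chromosome 9, from 2.44 in WT to -0.68 in MD1, followed by Olfr294 (1.27 to -1.62), Olfr421-ps1 (1.44 to -0.77), Olfr155, Olfr370 (1.76 to -0.27), Olfr225, Olfr1020 and Olfr556. The highest were Olfr90 on chromosome 17, from -0.79 to 1.38, Olfr1509 (-0.96 to 0.87), Olfr557 (-0.25 to 1.55), Olfr902, Olfr1354, Olfr399, Olfr1167 and Olfr1510. In lowest terms the ratios were 21 to 4 and 7 to 11 for Olfr968 and 9 to 16 and 8 to 3 for Olfr90.

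Clusters differed in the sign of their median difference. Of the 14 clusters with at least 5 values, which held 211 of the 245 genes, 10 had a negative and 4 a positive median, from -0.59 to 0.47. Relative to genes of like level and length 10 were again negative, but centring on the other autosomal genes, which removes a shift of -0.27, left 5 negative. The largest cluster, on chromosome 2 from 85171124 to 90241831, listed 224 receptor genes, of which 53 had values. Their median was -0.38 in WT and -0.84 in MD1, with 15 genes past the limit downward (28.3%) and 1, Olfr1167, upward (1.89%). Of the 15 lower genes 14 were shorter than 2000 bp, a length at which 22.9% of other autosomal genes were lower and 10.4% higher, and the longer one was Olfr1030. On chromosome 11, the cluster from 58268417 to 59427727 had 3 of 10 genes lower and none higher, with a median of -0.42. These shares were not tested against the background.

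In the other direction stood the second large cluster of chromosome 11, from 73164361 to 74179111. Of its 9 genes of 2000 bp or more, 8 had a positive difference, and their median was -0.07 in WT and 0.20 in MD1, with a median difference of 0.47. Besides Olfr378 it included Olfr389 (-1.68 to -0.68), Olfr20 (-0.07 to 0.60) and Olfr1 (-0.50 to 0.13). The cluster of chromosome 9 from 18559136 to 20140538 was similar, with 7 of 8 longer genes positive and a median difference of 0.23. In the other chromosome 9 cluster, from 37518933 to 39995679, none of 9 longer genes was positive, and their median was -0.17 in WT and -0.74 in MD1. Of all autosomal genes, 31% had a positive difference. Neighbouring genes share their chromatin, so members of a cluster are not independent.

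**Figure D5:**
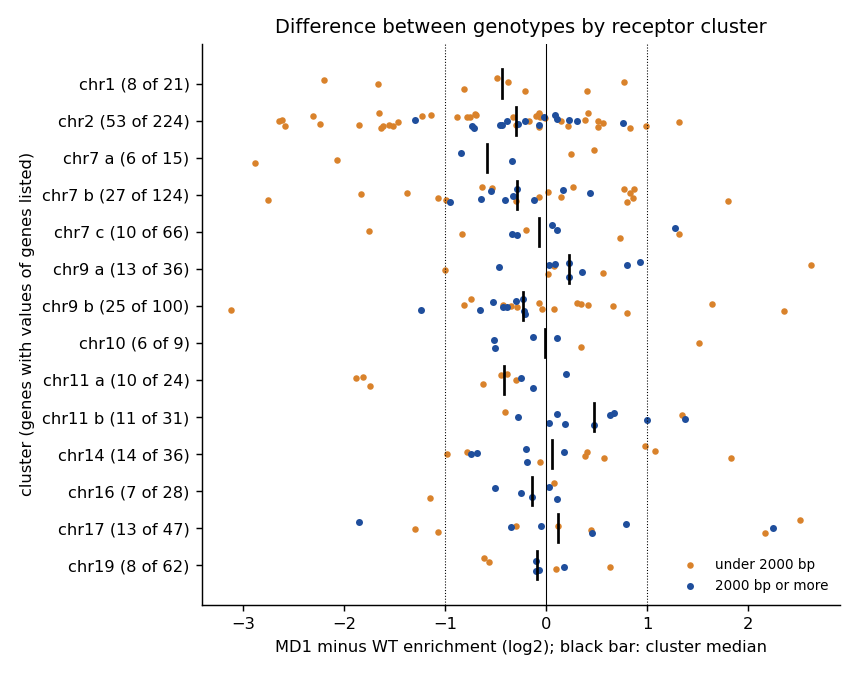
MD1 minus WT enrichment (log2) of each receptor gene, by cluster, for the 14 clusters with at least 5 values. The labels give the chromosome, a letter for clusters of the same chromosome in order of position, and the genes with values of the genes listed. Orange points are genes under 2000 bp, blue points longer ones, and black bars are cluster medians. The medians run from -0.59 to 0.47, with chr7 a the lowest and chr11 b the highest.

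The class I receptors, an ancient group related to those of fish and gathered in 1 cluster on chromosome 7, were close to the rest. That cluster, from 109625287 to 112517831, listed 124 receptor genes, 27 of them with values. The median was 0.04 in WT and -0.09 in MD1, with a median difference of -0.29. Past the limit were 4 genes with less of the mark in MD1 (14.8%) and 1 with more (3.70%). Among autosomal genes these shares were 20.4% and 1.61%, and among other genes from 1000 bp to under 2000 bp 22.9% and 10.4%. Of the 27 genes 9 span 2000 bp or more, a length at which other autosomal genes had 20.4% and 1.18%. The 218 class II receptors had medians of -0.28 and -0.43 and a median difference of -0.13. Centred on the other autosomal genes the medians of D were -0.02 in class I and 0.15 in class II. Relative to genes of like level and length they were -0.17 and -0.09. The quartiles of D overlapped widely, from -0.64 to 0.35 in class I and from -0.53 to 0.26 in class II.

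Class I members known outside the nose included Olfr78, a short-chain fatty acid receptor of kidney and carotid body, 18751 bp long. It stood at 0.37 in WT and 0.05 in MD1, with ratios of 250 to 199 and 189 to 179. Olfr558, a receptor for carboxylic acids, stood at 0.22 and 0.66. Olfr544, a receptor for azelaic acid, stood at -0.42 and -0.53. None of these 3 differed 2-fold.

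Of 17 receptors chosen because they are well known, 11 had values. Among class II genes, Olfr1507 (MOR28), whose expression depends on the H enhancer nearby, stood at -0.57 in WT and -0.78 in MD1, whereas Olfr1509 in the same cluster, 1010 bp long, is among the highest differences above. Olfr16 (MOR23), a receptor for lyral, stood at 0.71 and -0.96. Olfr151 (M71), an acetophenone receptor, stood at 0.78 and -0.03. Olfr2 (I7), an octanal receptor, stood at -1.54 and -0.22. The last 3 span 1050 to 1731 bp, within the scattered length range.

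The other genes inside receptor clusters had lower medians than the receptors as a whole. Within the 14 clusters lay 142 such genes with values, whose median was -0.65 in WT, -0.82 in MD1 and -0.29 for D. Their lower quartiles were -1.85 and -2.21, against -0.78 and -0.99 for the receptors. Past the limit were 25 lower (17.6%) and 2 higher (1.41%), near the 20.4% and 1.61% of all autosomal genes. The 118 that overlap no other listed gene had higher medians, -0.38 in WT and -0.65 in MD1. Receptors in clusters of 10 or more stood at -0.28 and -0.49, and all autosomal genes at -0.78 and -0.90. In the class I cluster the embryonic globin genes Hbb-bh1 (0.89 and 0.47) and Hbb-y (0.65 and 0.73) stood above 0, while Trim21, encoding an antibody receptor, was -0.76 in WT and -1.81 in MD1. On chromosome 9 the zinc finger gene Zfp317 was -2.50 in WT and -4.18 in MD1 inside a cluster with receptor medians of -1.37 and -0.65. These 4 were picked after their values were seen.

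A list of genes linked to olfactory signalling, receptor transporters included, stood above the receptors in the median. Of 20 listed, 19 had values, and the median was 0.43 in WT and 0.57 in MD1. Above 0 were 11 of them in WT and 10 in MD1. Others, such as Slc12a2 (-1.64 and -2.13) and Pde4a (-1.70 and -1.65), lay well below the receptor medians. Past the limit were 1 lower and 1 higher gene. Gnal, the olfactory G protein alpha subunit, stood at 0.99 in both genotypes, Cnga4, a subunit of the cyclic nucleotide-gated channel, at 1.27 and 1.33, and Rtp1, a receptor transporter, at 1.45 and 1.28. The lower one was Gnb1, a G protein beta subunit used in most cells, from -3.02 to -4.66, and the higher one Gng8, a gamma subunit, from -1.42 to -0.33. Omp, like Gnal, overlaps another listed gene; it differed by -0.96 and Ric8b, a G protein chaperone, by -0.81.

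Of 19 regulators of receptor choice, all with values, 7 (36.8%) passed the limit downward and 1 upward, against 20.4% and 1.61% of autosomal genes. Their median was -2.51 in WT and -3.36 in MD1, a median difference of -0.82 that became 0.12 relative to genes of like level and length. The largest differences were at Ddit3, a stress-response transcription factor (-2.54 to -6.62), the H3K9 methyltransferase gene Setdb1 (-2.37 to -4.33), the histone demethylase gene Kdm1a (-2.54 to -4.37) and the homeobox gene Emx2 (-0.65 to 0.53). In lowest terms the ratios of Ddit3 were 1 to 6 and 1 to 96, and Ddit3 and Setdb1 overlap another listed gene. Lhx2 stood at 2.40 and 2.06.

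Vomeronasal and other chemoreceptor families gave a mixed picture beside the olfactory receptors. The 91 Vmn2r genes with values, which are long (median 24737 bp), had a median of -1.24 in WT, of -0.86 in MD1 and of 0.26 for D. Of these, 62 were positive, against 31% of all autosomal genes. None was past the limit downward and 1 upward (1.10%), Vmn2r28 (-1.21 in WT and -0.14 in MD1), against 20.4% and 1.61% of autosomal genes. The 28 Vmn1r genes, which span 1020 to 8858 bp, had medians of -0.67 and -0.40. Of these 4 were lower (14.3%) and 9 higher (32.1%), against 20.4% and 1.61% of autosomal genes. By length the shares were 22.9% and 10.4% of other genes from 1000 bp to under 2000 bp. They were 23.2% and 5.71% from there to under 5000 bp, and 20.3% and 1.43% from there to under 10000 bp. The largest Vmn1r difference was at Vmn1r66 (-3.86 and -0.45). The 12 trace amine-associated receptors (Taar), olfactory receptors of another family in 1 cluster of chromosome 10, stood higher, at 0.78 and 0.87, with Taar7e and Taar6 lower and Taar5 and Taar9 higher. The medians of D were 0.08 in 5 Tas2r, 0.12 in 3 Tas1r, -0.10 in 16 Ms4a and 0.70 in 5 Fpr genes. Without replicates, no difference between these families and the olfactory receptors could be tested.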

How the data were processed

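The authors deposited 1 table of H3K27me3 enrichment per gene on a log2 scale, with 1 column each for WT and MD1. Positions are those of mm9, the build named in the submitters' processing notes, printed with the first base counted as 1. The sources used here do not give the aligner, the read counting or the denominator. Nearly all deposited log2 values (99.98% in WT, 99.95% in MD1, relative tolerance 1e-12) fitted a whole-number ratio with terms up to 20000 after a constant (0.043 and -0.032) was subtracted, and these ratios are given in lowest terms. Read counts and depth are thus unknown, and no counting interval is given.

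D is MD1 minus WT, and the limit is 2-fold. Level-matched D subtracts the median D of the 500 other autosomal genes nearest in mean level within a length quartile. Calculations used Python 3.11.15, numpy 2.4.6 and pandas 2.3.3, and were tested on simulated data. All 245 symbols matched RefSeq symbols or synonyms.

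The members, lists and alternatives were chosen with earlier results of these data known. Named genes were the 8 lowest and 8 highest D at or above the median level of receptors, the 3 extremes of each genotype, the longest gene of each cluster with at least 10 values, 17 known receptors, up to 4 per list with the largest absolute D, and Smchd1. Others were picked after their values were seen.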

Additional observations from a re-analysis of the deposited data

How the results depend on the processing

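Without replicates, leaving out a library was not possible. The median receptor difference stayed negative under every setting tried but centring on other autosomal genes, which gave 0.15, and likewise 0.15 for class II receptors. The regulators of receptor choice turned to 0.12 when matched on level and length, and the Vmn2r median moved to 0.39. From 36 lower and 15 higher of the 245 receptors, a pseudocount of 1 left 8 and 2. Denominators of at least 20 in both genotypes kept only 54 receptors, with 2 lower and 1 higher. The 102 of 2000 bp or more had 3 and 3. A 1.5-fold limit gave 61 and 39, a 3-fold limit 23 and 8. Centring gave 34 higher, and leaving out the largest cluster, which kept 192 receptors, 21 lower. Restricted to 2000 bp or more, the median level was -0.39 in WT and -0.57 in MD1. The restrictions on length and to other clusters were chosen after the data were seen. A pseudocount of 0.01, the filter on level, and leaving out overlapping genes, pseudogenes or repeats kept both counts within 1.5 times, and gaps of 500 kb and 2 Mb kept 14 clusters, 10 of them negative. The unknown read depth limits single genes, above all those under 2000 bp.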

Other observations

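A further 6 receptor genes had a value in 1 genotype only. In WT alone these were Olfr1386 (-0.44), Olfr724 (-1.96), Olfr111 (-2.42) and Olfr1274-ps (0.46), and in MD1 alone Olfr43 (-1.35) and Olfr723 (-1.62). All span 1006 to 1128 bp. The 12 measured receptors with a pseudogene symbol had medians of 0.00 in WT and -0.82 in MD1, beside -0.22 and -0.41 in the 233 others. Their median difference per gene was -0.29, and 3 of the 12 were at least 2-fold lower and none higher, against 20.4% and 1.61% of autosomal genes. Olfr619, a class I receptor of 1123 bp, had the lowest MD1 value of any receptor, -3.94 (1 to 15 in lowest terms), against -1.18 in WT (3 to 7). In WT the lowest were Olfr108 (-2.76), Olfr866 (-2.66) and Olfr25 (-2.54), which stood at -0.25, -0.03 and -0.18 in MD1, and their WT ratios were 1 to 7, 2 to 13 and 1 to 6.
Next lowest in MD1 were Olfr121 and the short Olfr1107 (-2.49, against 0.16 in WT).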
